A study of Mus musculus with 18 samples.

Results

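The Peg3 imprinted cluster of proximal chromosome 7 was examined for H3K9me3, the trimethylation of lysine 9 of histone H3, in mouse embryonic stem cells (mESCs) of the line E14TG2a. Members were taken by name, and 3 of the 4 genes listed (Peg3, Usp29 and Zim1) had a position in the deposited gene annotation, which holds 35857 genes on the assembled chromosomes. Zfp264 was not located and has no value here. Every peak over the transcripts of the located genes plus 10 kb on either side was taken, a window on chromosome 7 from 6664444 to 6977220 (mm10, 313 kb). Overlapping peaks of the 6 lists merged into 31 regions in this window, of 159870 in the genome.

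The 6 lists come from ChIP-seq of wild-type, Dhx9 KO and Uhrf1 KO mESCs, with 2 libraries per genotype. A peak is a run of 200 bp bins that the authors' caller found enriched over input DNA, and its log2 fold compares its ChIP reads with its background reads after scaling for library size. According to the methods, the Uhrf1 KO cells were clonal CRISPR-Cas9 lines made in mESCs that already carried the study's inducible heterochromatin system, a TetR-KRAB repressor and an eGFP reporter with tetO sites. In the paper's comparison of imprinted loci with Uhrf1 KO, the wild-type cells are also named as carrying the tetO and eGFP reporter. The sources used here do not describe how the Dhx9 KO cells were made. The labels give no treatment for these 6 libraries. UHRF1 recruits the maintenance DNA methyltransferase to newly replicated DNA, and DHX9 is an RNA and DNA helicase. Lists hold no expression values, so the loss of either gene product cannot be read from them.

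Genomic imprinting is expression from only the maternal or only the paternal copy of a gene. In the Peg3 domain, DNA methylation of the maternal copy at the shared Peg3 and Usp29 start region is laid down in the oocyte and kept after fertilization, and Peg3 and Usp29 are expressed from the paternal copy while Zim1 is expressed from the maternal copy. Peg3 encodes a large zinc finger protein, Usp29 a ubiquitin-specific protease and Zim1 a Krüppel-type zinc finger protein. At methylated imprinting control regions, the zinc finger protein ZFP57 binds methylated TGCCGC and brings in TRIM28 and the H3K9 methyltransferase SETDB1, and the zinc finger protein YY1 is known to bind this domain. Both parental copies were read together in these libraries.

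Peg3 (minus strand, 6703892 to 6730441) and Usp29 (plus strand, 6730560 to 6967220) are transcribed away from each other, and their most upstream starts lie 118 bases apart. The stretch between them, at chr7:6730442-6730559 on the plus strand, is shown because every wild-type and Dhx9 KO list had a peak over it and no Uhrf1 KO list did. Capitals mark its 3 CpG dinucleotides.

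between starts: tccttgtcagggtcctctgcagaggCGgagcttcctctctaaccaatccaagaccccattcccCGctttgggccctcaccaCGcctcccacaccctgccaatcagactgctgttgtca

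The CpG-rich sequence lies mainly on the Peg3 side. Within the 7800 bp that the peaks of both wild-type libraries shared there (6724601 to 6732400), CpG density was 22.2 per kb, and 2.56% of 4966 stretches of the same length had as much. The stretches are the central part of each stretch of at least that length shared by both wild-type lists, the Peg3 one included. Both strands were searched for TGCCGC, the core of the ZFP57 motif, and for GCCATNTT, a YY1 motif, and no match of one overlapped a match of the other there. The shared stretch held 8 matches of TGCCGC and 12 of GCCATNTT. At least 1 match was found in 58.7% and 80.1% of these stretches, respectively, but as many as at Peg3 in 0.141% and 0.0604%. TGCCGC itself holds a CpG, and the stretches were not matched for CpG density, so its share is not separate from the CpG result. All matches in the Peg3 stretch lay in intron 1 of Peg3. They lay 0.274 to 1.92 kb inside the Peg3 start for TGCCGC and 0.852 to 3.14 kb for GCCATNTT. The YY1 matches are printed because all 12 read in the direction of Peg3 transcription and form a series of near copies, 11 of them with C at the free position. Each is given on the minus strand with 8 bases on either side and the match in capitals, in order from the Peg3 start.

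GCCATNTT 1: cagttggcGCCATCTTggagggtg
GCCATNTT 2: cgcttggcGCCATCTTgaaatgac
GCCATNTT 3: atcctggcGCCATCTTtcctggcc
GCCATNTT 4: accctgacGCCATCTTtgctggct
GCCATNTT 5: aatttggcGCCATCTTtgccagca
GCCATNTT 6: gtgcagacGCCATCTTgaatgaca
GCCATNTT 7: ctgaaggtGCCATTTTgattgaca
GCCATNTT 8: cacctgacGCCATCTTtgctgacg
GCCATNTT 9: gtgcagtaGCCATCTTgaatgaca
GCCATNTT 10: acctgggcGCCATCTTtacttgtc
GCCATNTT 11: cctctggcGCCATCTTtgttggcc
GCCATNTT 12: tcattggcGCCATCTTtgttggcc

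The TGCCGC matches lay nearer to the start and read in both directions, 5 with Peg3 and 3 with Usp29. They are shown on the strand that reads TGCCGC, in the same order, with the match in capitals.

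TGCCGC 1: gggtgcgtTGCCGCgggccagg
TGCCGC 2: atatggtcTGCCGCccctggcc
TGCCGC 3: ggccgtgtTGCCGCagggatgc
TGCCGC 4: aagaacagTGCCGCgcttagcg
TGCCGC 5: tcttgtttTGCCGCagtggcgg
TGCCGC 6: cgcggattTGCCGCgcaggcgc
TGCCGC 7: tcttagttTGCCGCacgaatgc
TGCCGC 8: ccgcctctTGCCGCaaacacat

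Elsewhere in the cluster, 9 of the 30 other regions held a TGCCGC match and none more than 2, while 21 held a GCCATNTT match and none more than 5. The promoter windows of Peg3 and Usp29 in the RefSeq table (GRCm38.p6) held no match of either motif, and that of Zim1 held 1 of TGCCGC. Among all 32851 promoters of the table, 11.6% held TGCCGC and 6.05% GCCATNTT. A match is a description of the letters and shows no binding.

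In wild-type cells, the Peg3 and Usp29 start region carried the longest peak of the cluster in each list, and its enrichment was close to that of the Zim1 last exon, the highest of the cluster in replicate 1. Wild-type replicate 1 had a peak of 10400 bp with 806 ChIP reads and 238 background reads, a log2 fold of 1.92. Replicate 2 had a peak of 8400 bp with 690 and 189 reads, a log2 fold of 2.09. The mean was 2.00 ± 0.12 (SD, n = 2), about 4.01-fold over background, and these peaks ranked at the 86.1 and 88.7 percentile of log2 fold in their own lists. Both peaks held all of intron 1 of Peg3 (6726575 to 6730257), both starts and the beginning of Usp29. A start lay in a peak of both wild-type lists for 13.1% of all genes.

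Neither Uhrf1 KO list had a peak at the Peg3 and Usp29 starts. In Uhrf1 KO replicate 1, no peak was listed within 51.4 kb of the Peg3 start on the Zim1 side or within 28.0 kb on the Usp29 side, a gap of 79.4 kb. In replicate 2 the nearest peaks were 18.0 kb and 3.76 kb away, a gap of 21.8 kb. The paper, which compared reads over a common set of peaks, reported a strong decrease in H3K9me3 at the Peg3 imprinted cluster in Uhrf1 KO. Reads outside peaks are not in the lists used here, so the level left at the starts cannot be read from them. For scale, the lists of replicates 1 and 2 held 2556 and 5783 peaks of 7200 to 10400 bp, the widths seen here in the other genotypes. Those peaks went down to 100 and 127 ChIP reads and to log2 folds of 0.18 and 0.12, but few lay so low in replicate 1. The 5th percentile of their log2 folds was 0.78 and 0.38 and the median 1.93 and 1.12, against medians of 0.92 and 0.91 in wild-type. In replicate 1, 8.45% of such peaks had a log2 fold under 1, against 59.2% and 60.1% in wild-type. Of 4695 gene starts that lay in a peak of both wild-type lists, 35.8% had no peak in either Uhrf1 KO list. That share takes in peaks of every strength. It was not worked out for peaks as strong as the 1 that the Peg3 and Usp29 starts share.

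Dhx9 KO cells kept the peak at the Peg3 and Usp29 starts at lower enrichment. Replicate 1 had 416 ChIP and 151 background reads over 7200 bp, a log2 fold of 1.46. Replicate 2 had 599 and 213 reads over 9200 bp, a log2 fold of 1.50. Both values lay under both wild-type values, with a mean of 1.48 ± 0.03 (SD, n = 2), which is 0.52 lower on the log2 scale or 0.697 of the wild-type enrichment. Such non-overlap was common, at 39.0% of all regions called in these 4 lists. In the edgeR quasi-likelihood test on ChIP reads per called length, over the 58456 regions called in all 4 libraries, the region changed by -0.42 (log2, SE 0.13) with an adjusted p of 0.31, so it did not pass. Its unadjusted p from the same edgeR fit was 0.010. The log2 folds of whole Dhx9 KO lists were also slightly lower, with medians of 0.93 and 1.01 against 1.05 and 1.06 in wild-type.

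**Figure D1:**
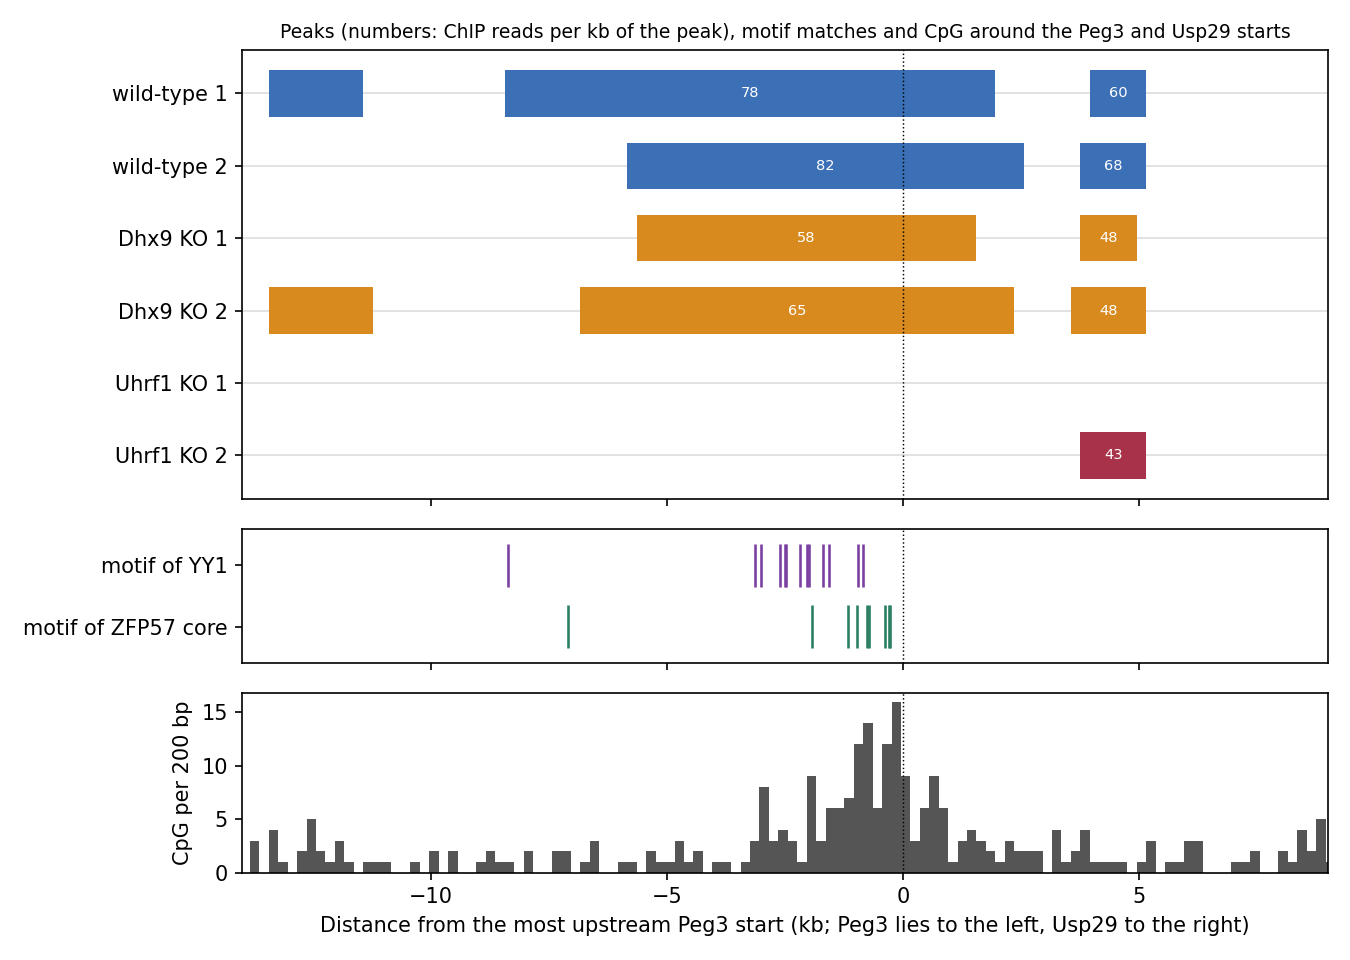
Peaks around the Peg3 and Usp29 starts in each library (top, with ChIP reads per kb of each peak), matches of TGCCGC (ZFP57 core) and GCCATNTT (YY1) on either strand (middle), and CpG dinucleotides per 200 bp bin (bottom), against the distance from the most upstream Peg3 start in kb. The 4 wild-type and Dhx9 KO peaks, at 57.8 to 82.1 reads per kb, cover the motif clusters and the CpG-rich bins, where neither Uhrf1 KO list has a peak.

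At Zim1, all 6 lists had a peak over the last exon, which codes for its zinc fingers, and none had one at the most upstream start. Of the 5 annotated starts of Zim1, 1 lay in a peak, in wild-type replicate 2 only (6685601 to 6688000, log2 fold 0.62). The log2 fold at the last exon was 2.11 and 2.05 in wild-type replicates 1 and 2, with 185 and 160 ChIP reads. In Dhx9 KO it was 1.30 and 1.36, with 118 and 201 reads, and in Uhrf1 KO it was 1.58 and 1.11, with 37 and 77 reads. All 4 knockout values lay under both wild-type values. Over the genome, both values lay under both wild-type values at 39.0% of regions called in all 4 lists for Dhx9 KO and at 16.8% for Uhrf1 KO. The wild-type mean was 2.08 ± 0.04, against 1.33 ± 0.04 in Dhx9 KO and 1.35 ± 0.33 in Uhrf1 KO (SD, n = 2 each).

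Per called length, the Zim1 last exon held 84.1 ChIP reads per kb in wild-type replicate 1 and 160 reads over 2000 bp in replicate 2, against 53.6 and 52.9 in Dhx9 KO, and 20.6 and 35.0 per kb in Uhrf1 KO. These values are not scaled for depth, and ChIP reads in peaks summed to 6703081 in Uhrf1 KO replicate 1 against 20875020 and 19543177 in wild-type. The edgeR estimate for Uhrf1 KO was a log2 change of -1.19 (SE 0.32), lower than at all but 0.776% of the 40617 regions called in all 4 libraries, with an unadjusted p of 0.0027 and an adjusted p of 0.29. For Dhx9 KO it was -0.67 (SE 0.19), with an adjusted p of 0.27 in the edgeR test. Neither passed. Without the correction for called length the Dhx9 KO change was only -0.17 (SE 0.37), and the peak of Dhx9 KO replicate 2, at 3800 bp, was the longest of the 6 and held more reads than either wild-type peak. The Uhrf1 KO change without that correction was -1.25 (SE 0.29), but 6.57% of regions then lay lower, so its extreme rank depended on the correction. The Uhrf1 KO fit called 0 of its 40617 regions (0.00% in either direction) although 3920 had an unadjusted p under 0.05, and the Dhx9 KO fit called 0.0103% of its regions as lower and 0.00% as higher.

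The stretch that the last-exon peak covered in all 6 lists ran from 6677201 to 6678200. It lies in the last coding exon of Zim1 (6676926 to 6678262), which holds 11 non-overlapping copies of the codon pattern of a C2H2 zinc finger. A pair of neighbouring copies from this stretch is shown, at chr7:6677706-6677852 on the minus strand, with only the cysteine and histidine codons that define the pattern in capitals.

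Zim1 fingers: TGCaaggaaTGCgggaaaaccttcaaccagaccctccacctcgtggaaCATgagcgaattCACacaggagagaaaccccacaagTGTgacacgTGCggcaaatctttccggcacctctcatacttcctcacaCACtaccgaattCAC

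Of the 11 copies, 10 to 11 lay inside a peak in each wild-type and Dhx9 KO list, 8 in Uhrf1 KO replicate 1 and 11 in replicate 2. The last coding exon of Peg3 (6707509 to 6711731) also held 11 copies of the pattern, spread over a longer exon, and 10 to 11 of them lay inside a peak in each wild-type and Dhx9 KO list. In Uhrf1 KO, the count was 0 in replicate 1 and 9 in replicate 2. The last coding exon of Usp29 held none.

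At the last exon of Peg3, wild-type replicates had 326 and 343 ChIP reads over 6600 and 5400 bp, with log2 folds of 1.26 and 1.64. Dhx9 KO replicates had 303 and 331 reads, with log2 folds of 1.33 and 1.35, inside the wild-type range. The edgeR log2 change was 0.02 (SE 0.19) with an adjusted p of 0.99, so the last exon and the start of the same gene differed in their Dhx9 KO estimates, a difference that was not itself tested. Uhrf1 KO replicate 2 had a peak of 4600 bp with 196 reads and a log2 fold of 0.91, under both wild-type values, and replicate 1 had none. Peg3 as a whole was under peaks over 64.2% and 42.3% of its length in wild-type, 40.1% and 55.9% in Dhx9 KO, and 0% and 17.3% in Uhrf1 KO.

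Most regions of the cluster were weak peaks along Usp29, which spans 237 kb. Peaks covered 14.4% and 18.2% of the gene in wild-type, 21.6% and 18.9% in Dhx9 KO, and 0.338% and 4.90% in Uhrf1 KO. In wild-type the intronic peaks had log2 folds of 0.33 to 1.48, under the value at the Usp29 start. A short peak in the first intron (6734001 to 6735600) had log2 folds of 1.08 and 1.36 in wild-type, 0.79 and 0.80 in Dhx9 KO and 1.10 in Uhrf1 KO replicate 2, with no peak in Uhrf1 KO replicate 1. Repeats made up 60.4% of that region, against 9.65% of the region at the starts.

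One intronic region of Usp29 differed from the rest. In all 6 lists a peak covered the stretch from 6758401 to 6759200, 28 kb inside the gene. Log2 folds were 1.32 and 0.91 in wild-type, 0.78 and 1.35 in Dhx9 KO, and 2.13 and 2.16 in Uhrf1 KO, where both libraries lay above all others. Over the genome, both Uhrf1 KO values lay above both wild-type values at 40.9% of regions called in all 4 lists. The Uhrf1 KO peaks were also narrower, 800 and 1600 bp against 4200 and 3800 bp in wild-type, and had only 24 and 74 ChIP reads. Per called length, the edgeR log2 change was 0.39 (SE 0.34) with an adjusted p of 0.75, and without the correction for called length it was -1.36. A higher log2 fold over a shorter peak is therefore not shown to be more H3K9me3 at this site.

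**Figure D2:**
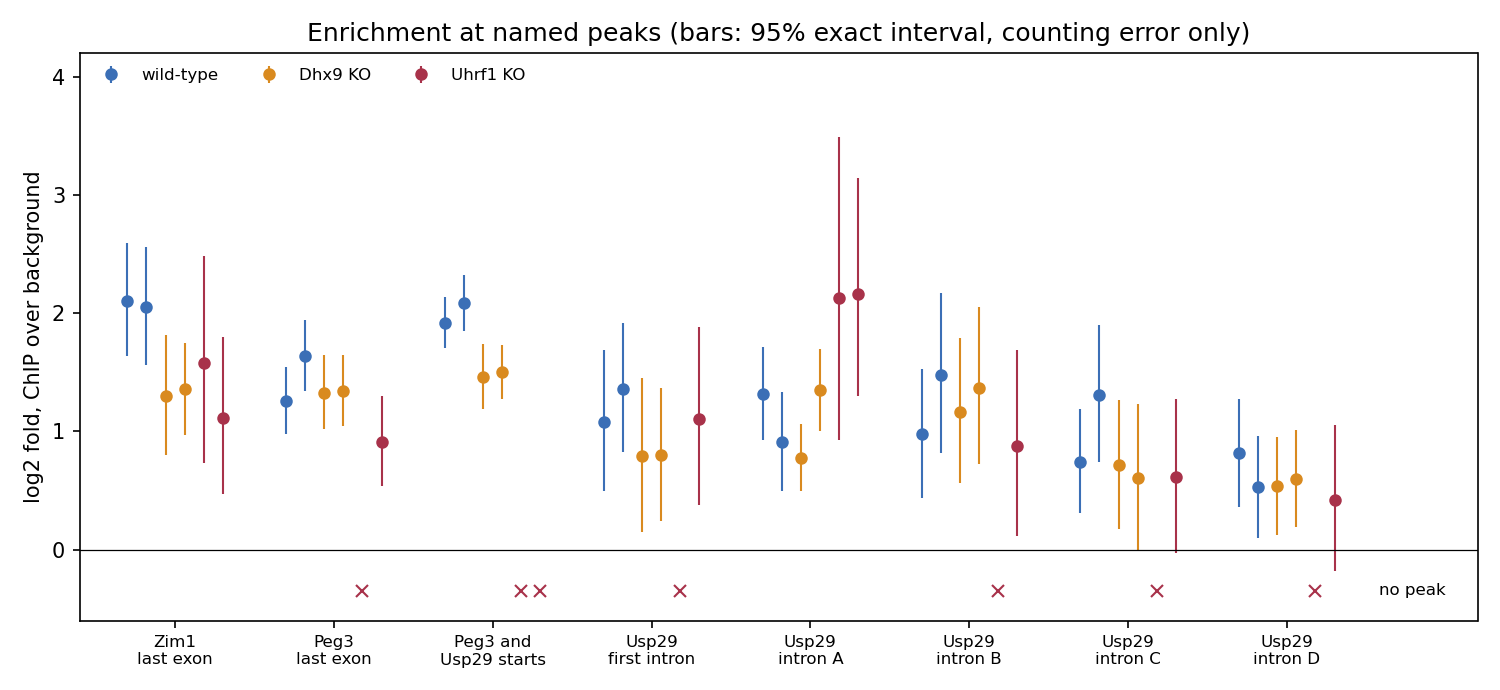
Log2 fold of ChIP over background reads at 8 named peaks of the cluster, with 1 point per library, 95% exact binomial intervals that cover counting error only, and a cross where a list has no peak. The named peaks were chosen with the peaks known. Of the 17 cluster regions with a peak in both wild-type lists, 8 had none in either Uhrf1 KO list, and of these only the starts are shown. Introns A to D of Usp29 are numbered by distance from the Peg3 start, A being the one at 28 kb, and wild-type values are highest at the Zim1 last exon and at the Peg3 and Usp29 starts.

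Across the cluster, 17 regions had a peak in both wild-type lists. Of these, 8 (47.1%) had no peak in either Uhrf1 KO list, 6 had one in 1 list and 3 in both. Over the genome, 24.2% of 80160 regions called in both wild-type lists had no peak in either Uhrf1 KO list. Of the 8, all but the starts had wild-type log2 folds between 0.40 and 1.51, against list medians of 1.05 and 1.06. Regions with a Uhrf1 KO peak included some as weak, with 0.49 and 0.45 at 6680401 to 6684800. Neither share is matched for peak strength. Of the same 17 regions, 0 lacked a peak in both Dhx9 KO lists, 1 lacked it in 1 list and 16 had it in both, against a genome share of 6.99% without one in either. The 3 regions kept in all 6 lists were the Zim1 last exon, the Usp29 intron at 28 kb and a flanking region at 6971401 to 6978600, near Zim3.

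Called length over the cluster also differed between genotypes. Peaks over the cluster covered 68200 and 70200 bp in wild-type, 80400 and 76600 bp in Dhx9 KO, and 6400 and 27800 bp in Uhrf1 KO. Relative to the wild-type mean this was 116% and 111% in Dhx9 KO and 9.25% and 40.2% in Uhrf1 KO, so the Uhrf1 KO libraries lay under all others and far apart from each other. With equal numbers of peaks per list, the Dhx9 KO mean turned from 113% to 87.1% of wild-type. The whole lists of Uhrf1 KO replicates 1 and 2 covered 49.7% and 83.7% of the wild-type mean, and those of Dhx9 KO 100% and 97.7%. With 2 libraries against 2, an exact two-sided permutation test cannot go under 0.333, and none was used.

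**Figure D3:**
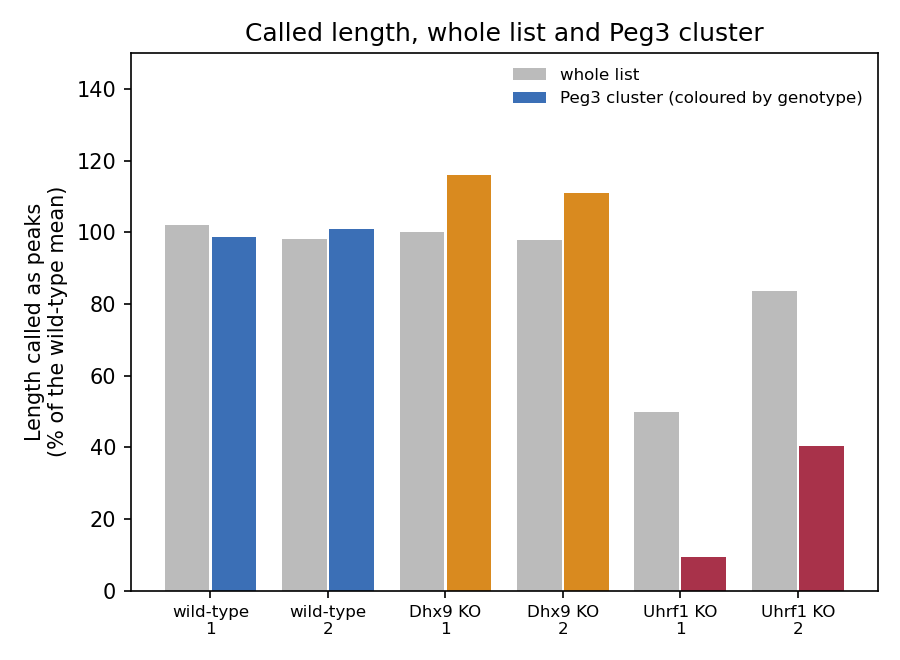
Length called as peaks in each library as a percentage of the wild-type mean, for the whole list (grey) and for the Peg3 cluster (coloured by genotype). In both Uhrf1 KO libraries the cluster, at 9.25% and 40.2%, lies under the whole list, at 49.7% and 83.7%.

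The lists differ in ways that touch these values. ChIP reads in peaks summed to 6703081 in Uhrf1 KO replicate 1 and to between 16966576 and 20875020 in the other 5 libraries, and Uhrf1 KO replicate 1 held the fewest peaks, 70195 against 93916 to 125453. For peaks with identical limits, background reads were the same throughout the wild-type and Dhx9 KO libraries and within the Uhrf1 KO pair, but the same in only 1.85% to 4.29% of such peaks across these sets. Genotype and background therefore cannot be told apart for Uhrf1 KO. Among starts of 5 stem cell genes that should lack H3K9me3 (Pou5f1, Nanog, Sox2, Klf4 and Esrrb), only that of Esrrb lay in a peak, in 5 of the 6 lists.

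**Figure D4:**
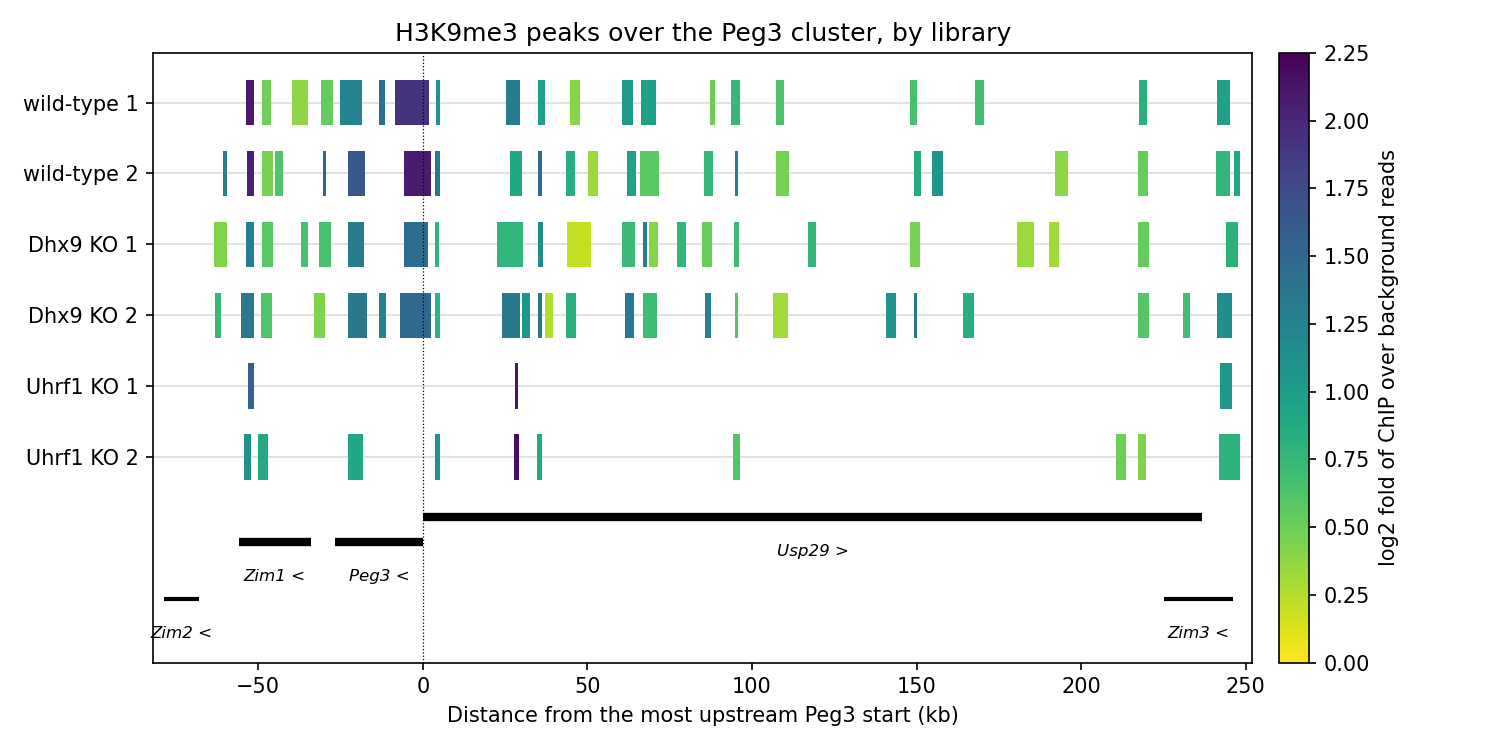
Peaks of each library over the Peg3 cluster, coloured by log2 fold, against the distance from the most upstream Peg3 start in kb, with members as thick and Zim2 and Zim3 as thin lines and transcription to the left (<) or right (>). Wild-type and Dhx9 KO lists have 20 to 24 peaks each, and the Uhrf1 KO lists have 3 and 10.

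In Dhx9 KO, 16 regions of the cluster were called in all 4 libraries and could be compared by read count. The edgeR log2 change was under 0 at 7 and over 0 at 9 of them, and 0 passed an adjusted p of 0.05, with 2 under 0.05 before adjustment, as had 5801 of all 58456 regions. Their median change was 0.01, against -0.01 over all regions. Without the correction for called length the order changed. The lowest were -0.61 at the starts, -0.54 at 6824201, -0.38 at the Usp29 first intron, -0.30 at 6796401 and -0.17 at the Zim1 last exon. The Usp29 intron at 28 kb moved from 0.11 to 1.05, the highest, followed by 0.73 at 6697401 and 0.60 at 6765401. Both Dhx9 KO log2 folds lay under both wild-type values at 4 of the 16 (25.0%), namely the Zim1 last exon, the Peg3 and Usp29 starts, the Usp29 first intron and a Usp29 intron region at 6824201. This share was under the 39.0% given above for the genome, so lower log2 folds in Dhx9 KO were not particular to the cluster. At 1 region, Zim1 from 6681401 to 6684800, both were higher (7.53% over the genome), and it was also the only one covered over at least 80% in each library. In the fit limited to regions covered that far, which called 0.508% of its regions as lower and 0.0424% as higher, its edgeR log2 change was 0.31 (SE 0.18) with an adjusted p of 0.53. The same fit for Uhrf1 KO called 6.51% as lower and 2.05% as higher and held no region of the cluster.

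**Figure D5:**
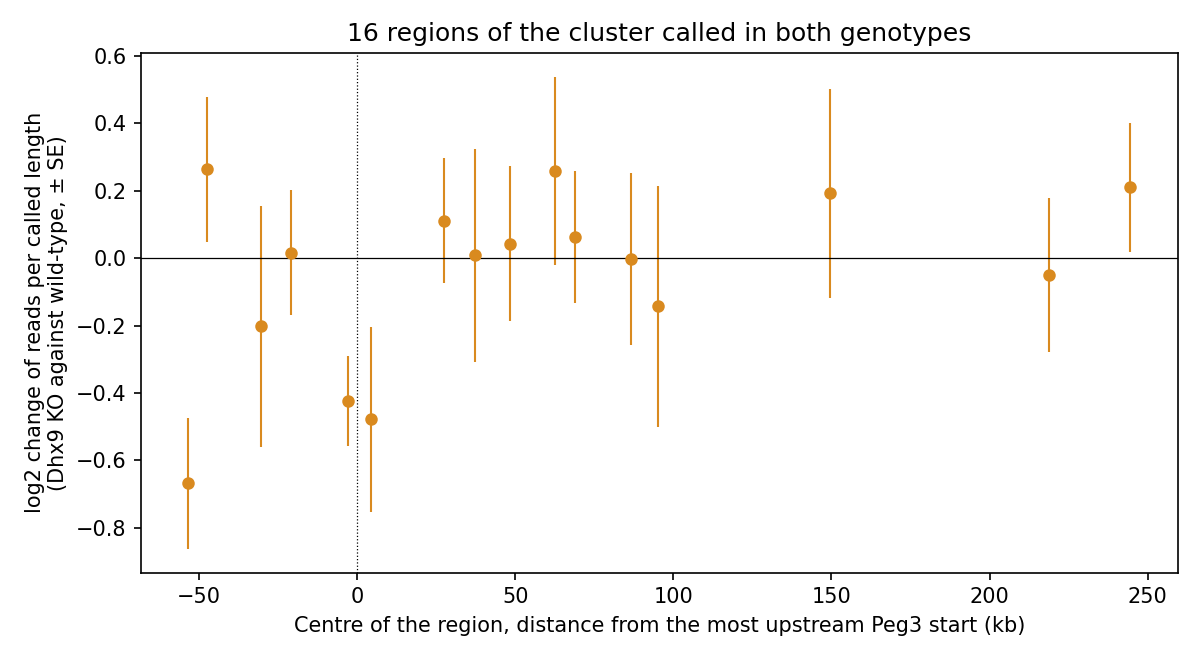
Log2 change of ChIP reads per called length in Dhx9 KO against wild-type at the 16 regions of the cluster called in all 4 libraries (points, with SE from the edgeR fit), against the distance of the region's centre from the Peg3 start in kb. With the correction for called length, the lowest estimates are the Zim1 last exon at -0.67, the Usp29 first intron at -0.48 and the Peg3 and Usp29 starts at -0.42, and the others lie between -0.20 and 0.26.

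Of 14 listed genes of the domain and its surroundings on chromosome 7, 10 had a peak over their transcripts in both wild-type lists. In Uhrf1 KO, 2 of these 10 (Peg3os, an antisense transcript within the Peg3 last exon, and Zfp787) had no peak in either list, and 5 had one in both. At Peg3os this turned on a peak edge, since the peaks of wild-type replicate 2 and both Dhx9 KO lists touched only 24 bp (2.77%) of it, and the Uhrf1 KO replicate 2 peak began 200 bp farther on. All 10 kept a peak in at least 1 Dhx9 KO list. Over all genes with a peak in both wild-type lists, 20.6% had none in either Uhrf1 KO list and 3.89% none in either Dhx9 KO list. Beyond Zim2, the zinc finger gene next to Zim1, a peak of 23400 to 36600 bp was enriched in all 6 lists, with log2 folds of 2.21 and 2.34 in wild-type, 1.72 and 2.08 in Dhx9 KO, and 2.46 and 2.81 in Uhrf1 KO. This peak lies outside the window. Both Uhrf1 KO log2 folds were above both wild-type values, as at 40.9% of regions over the genome and against other background reads. ChIP reads per kb, not scaled for depth, differed in direction between the Uhrf1 KO libraries. They were 53.2 in replicate 1, under both wild-type values, and 119 in replicate 2, above both. The means were 86.1 in Uhrf1 KO and 96.5 in wild-type. Replicate 1 also had the fewest ChIP reads in peaks over the whole list, 6703081 against 16966576 in replicate 2.

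The start of Peg3 was 1 of 559 gene starts, in 513 sets of peaks, that lay in a peak of both wild-type and both Dhx9 KO lists and of no Uhrf1 KO list. Among these sets, 11 had a higher mean wild-type log2 fold than Peg3. By Euclidean distance over the 4 log2 folds, the nearest were AI854703 (0.30), Kcnq1ot1 (0.39), Mest (0.39), Peg13 (0.39) and Pnpla1 (0.41). Kcnq1ot1, for example, had log2 folds of 2.08 and 2.06 in wild-type and 1.27 and 1.21 in Dhx9 KO, and Mest had 2.10 and 1.86 in wild-type and 1.24 and 1.37 in Dhx9 KO.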

How the data were processed

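Of 18 samples, 6 with a deposited peak list were used, and 12 were not analysed here. The authors aligned reads with Bowtie2 (2.3.4.3), subsampled them with SAMtools and called peaks per library with epic2 (the labels name SICER 0.0.51), keeping duplicates. The deposited lists give ChIP and background read counts, p-values, log2 fold changes and a score per peak, and the score was not used. The methods name wild-type input as background and describe 2 biological replicates per sample. The Uhrf1 KO lists, however, hold other background reads than the wild-type lists, as given above. The series also holds an input sample for each genotype, and which input the Uhrf1 KO lists used is not stated. No Dhx9 KO method is given in the sources used here.

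The members and lists were chosen with earlier results of these data known. All members, 14 listed neighbours and the 5 genes nearest to Peg3 over 4 log2 folds are named. Peaks sharing a base were merged (Python 3.11.15, pandas 2.3.3). Reads were tested with edgeR 4.0.16 (R 4.3.3, quasi-likelihood test, TMM, called length as offset, Benjamini-Hochberg). Limiting the test to regions covered over at least 80% in each library left 1 cluster region, so the other cluster values come from all regions called in every library. Standard errors are the log2 change over the square root of F. The test was tried on simulated data only without the length offset and for regions covered over at least 80%. That trial does not check the fit behind the cluster values. Alternatives were stricter peak filters, equal numbers of peaks, other flanks, DESeq2 1.42.0, other scalings, a replicate block and leaving out each library. Sequences come from GRCm38.p6, which has the coordinates of mm10. Intervals cover counting error only.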

Additional observations from a re-analysis of the deposited data

Results flagged for a closer look

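Called length over the Peg3 cluster moved in opposite directions in the knockouts, up in both Dhx9 KO libraries and down in both Uhrf1 KO libraries relative to the wild-type mean. The genotype means differed by -88.78 percentage points (Uhrf1 KO minus Dhx9 KO), and this difference was not tested. With equal numbers of peaks per list, called length in Dhx9 KO was 87.1% of the wild-type mean, so that the directions were no longer opposite. It shares its wild-type libraries, and the background reads differ between these lists.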

How the results depend on the processing

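No peak lay at the Peg3 and Usp29 starts in either Uhrf1 KO list, and one lay there in both Dhx9 KO lists, under each stricter peak filter and with equal numbers of peaks. Called length over the cluster in Uhrf1 KO was 24.7% of wild-type, 53.9% with a flank of 50 kb, and 9.25% to 40.2% leaving out a library, lowest without Uhrf1 KO replicate 2 and highest without Uhrf1 KO replicate 1. In Dhx9 KO it was 113%, 108% at a log2 fold of at least 1, 106% with a flank of 50 kb, 87.1% with equal numbers of peaks, which reverses its direction, and 111% to 116% leaving out a library. The cause was not tested. The flank of 50 kb reaches the peak beyond Zim2, which is then counted at its whole length. That length was 36600 and 23400 bp in wild-type, 23400 and 28200 bp in Dhx9 KO, and 28200 and 34200 bp in Uhrf1 KO. The genome share of wild-type regions without a peak in Uhrf1 KO was 24.2%, and 25.7% to 48.0% leaving out a library, highest without Uhrf1 KO replicate 2. For Dhx9 KO it was 6.99%, 11.3% at a limit of 1e-10 on the false discovery rate, 15.0% when log2 folds had to reach 1, 12.0% with equal numbers of peaks, 14.5% when a peak had to cover 50% of the region, and 14.0% to 17.6% leaving out a library. For both knockouts, leaving out a library loosens the rule itself, because fewer lists then have to hold or lack a peak. These ranges therefore do not measure the spread between libraries alone.

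Counts of called regions over the genome moved more. For Uhrf1 KO, 165 were lower and 52 higher. These were 82 and 29 with DESeq2, 0 and 0 when library sizes were set equal, 167 and 136 with no offset for length, 0 and 0 over all regions, 26 and 4 with all 6 libraries, and 0 to 373 and 0 to 158 leaving out a library (highest without Uhrf1 KO replicate 1, 232 and 152 without Uhrf1 KO replicate 2, 0 and 0 without wild-type replicate 1, 3 and 0 without wild-type replicate 2). For Dhx9 KO, 24 were lower and 2 higher. These were 9 and 2 when library sizes were set equal, 12 and 2 with no offset for length, 6 and 0 over all regions, 0 and 0 with all 6 libraries, and 8 to 511 and 2 to 225 leaving out a library (lowest without wild-type replicate 2, 13 and 3 without wild-type replicate 1, 290 and 209 without Dhx9 KO replicate 1, highest without Dhx9 KO replicate 2). With a replicate block, 155 were lower and 45 higher in Uhrf1 KO, and 68 and 17 in Dhx9 KO. The labels do not say whether same-numbered libraries were prepared together. Their deviations from the group means had correlations of 0.05 and -0.05, which cannot exclude a shared preparation.

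At the Usp29 intron at 28 kb the Uhrf1 KO log2 change was -1.36 without the length offset, against 0.39. At the Zim1 last exon the Dhx9 KO log2 change was -0.17 with no offset for length, against -0.67. At the Peg3 last exon the Dhx9 KO log2 change was -0.12 without the length offset, and -0.21 to 0.26 leaving out a library, with -0.21 without wild-type replicate 1 and -0.10 without Dhx9 KO replicate 1. Reads outside peaks are not in the lists, which limits what can be said where no peak was called.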
